A study of Homo sapiens with 5 samples.

Results

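The inhibitors and activators that set the pace of G1 were followed in TOV21G, an established human line of ovarian clear cell carcinoma, when HDAC6 was targeted. HDAC6 is a deacetylase that works mostly in the cytoplasm. The 10 genes were the INK4 inhibitors CDKN2A, CDKN2B, CDKN2C and CDKN2D, the Kip inhibitors CDKN1B and CDKN1C, the D cyclins CCND1, CCND2 and CCND3, and RB1. Their rows were found by gene symbol, and they make up 10 of the 28442 gene rows of the deposited table. The series covers 5 treatments of this line with 1 library each, and its title places them among ARID1A-mutated ovarian cancers (ARID1A belongs to a chromatin remodelling complex). In the shHDAC6 library, cells had been infected with a virus carrying a hairpin against HDAC6 and selected in puromycin. The ACY1215 and CAY10603 libraries came from cells given those small-molecule HDAC6 inhibitors, and all 3 carry the label of repressed HDAC6. The controls were shControl, the library of the control hairpin, and vehicle, the library of the drug solvent. For doses, exposure times and the choice between the 2 listed hairpins, the labels give nothing. No treatment was repeated, so folds between single libraries carry no test, and intervals given for them cover counting error only.

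Cells pass through G1 when D cyclins bind and activate the kinases CDK4 and CDK6. The active kinases phosphorylate RB1, which otherwise holds E2F factors back and keeps the genes of S phase low. INK4 proteins bind CDK4 and CDK6 and keep them from pairing with D cyclins, while Kip proteins bind cyclin-kinase complexes and mainly restrain CDK2. The CDKN2A locus codes for p16INK4a and, from a separate first exon, for ARF, which protects p53 by restraining MDM2. CDKN2A and CDKN2B lie side by side on chromosome arm 9p and are often deleted together in tumours.

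Start-site windows are shown for CDKN2A, because its single row in the table sums transcripts from both first exons. CDKN2C is shown because cell division genes such as BIRC5 were nearest to it in values, with likeness measured for CDKN2A and CDKN2C only. Also, 1 of the CDKN2C windows was the sole window of the 12 with an E2F word. Each window runs from 250 bases before to 50 bases after a RefSeq start on the gene's strand (GRCh38.p14). At least 1 window was found for 7 of the 10 genes. CDKN1C, CCND1 and CCND2 had none. The window taken for the ARF start is chr9:21995275-21995574 and that taken for the p16INK4a start is chr9:21974808-21975107, both on the minus strand. These windows carry only the gene symbol, so the names ARF and p16INK4a were assigned to them here. The CDKN2C window is chr1:50968456-50968755 on the plus strand.
CDKN2A, ARF start: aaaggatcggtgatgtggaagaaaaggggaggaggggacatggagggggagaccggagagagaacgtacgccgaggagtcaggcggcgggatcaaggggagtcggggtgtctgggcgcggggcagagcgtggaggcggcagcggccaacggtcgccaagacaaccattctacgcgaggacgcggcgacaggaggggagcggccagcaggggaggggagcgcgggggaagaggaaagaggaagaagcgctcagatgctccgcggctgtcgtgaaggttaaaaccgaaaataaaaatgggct
CDKN2A, p16INK4a start: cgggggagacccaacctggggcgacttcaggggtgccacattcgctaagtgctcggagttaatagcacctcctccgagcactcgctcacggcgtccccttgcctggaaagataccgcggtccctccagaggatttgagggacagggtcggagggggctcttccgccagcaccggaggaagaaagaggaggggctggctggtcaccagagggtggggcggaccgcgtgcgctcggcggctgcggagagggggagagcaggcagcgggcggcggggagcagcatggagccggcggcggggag
CDKN2C: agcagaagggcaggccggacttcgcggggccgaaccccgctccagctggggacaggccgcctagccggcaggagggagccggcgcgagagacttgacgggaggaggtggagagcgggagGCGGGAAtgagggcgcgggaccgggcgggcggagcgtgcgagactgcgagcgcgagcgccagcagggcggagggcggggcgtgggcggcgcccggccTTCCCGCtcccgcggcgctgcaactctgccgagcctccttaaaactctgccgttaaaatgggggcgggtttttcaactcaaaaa
Capitals mark the core of an E2F site. The words searched on both strands were TTTCCCGC, TTTCGCGC, TTTGCCGC and TTTGGCGC, and then, after those gave no match in the 12 windows, the same words without their first T. The longer words stood in 3.31% of 35116 RefSeq windows of that length and the shorter ones in 13% of them. By gene, the shorter words stood in 15.3% of 27305 genes with a window, and in 1 of the 7 here, near that share. CDKN2C held TTCCCGC on the minus strand at -131 and on the plus strand at -34, with -1 the base before the start site, and no other window of these genes held a word. Starts outside the 12 windows were not searched. The only RB1 window was chr13:48476200-48476499, with 38.3% GC. Whether it holds the main start of RB1 was not checked, so other RB1 starts may have gone unsearched. A match in letters is a description and not a binding site.

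The targeted transcript stood at 29.2 CPM in the shHDAC6 library, 33.2 CPM in ACY1215 and 48.2 CPM in CAY10603, against 48.0 CPM in shControl and 51.1 CPM in vehicle (CPM, counts scaled to library size with TMM factors). HDAC6 RNA was thus lower in the ACY1215 library as well as in the hairpin library. Total counts lay between 43498805 and 57442767, and between 18571 and 22189 genes had a count, with both hairpin libraries below the 3 libraries of the drug experiment in the number of genes detected. The cell line label was set against markers: PAX8 lay between 104 and 145 CPM, while NAPSA and CDH1 stayed at or below 0.40 and 1.36 CPM. Of the other cell types, the summed level stayed between 0.660 and 2.24 CPM for 5 leukocyte markers, between 0.269 and 0.518 CPM for 4 endothelial markers and at or below 0.157 CPM for 4 erythroid markers. HBA2 was at 0 in every library. The 6 fibroblast markers summed to 24.9 CPM in shHDAC6, 37.6 CPM in ACY1215 and 36.9 CPM in CAY10603, against 27.0 CPM in shControl and 26.5 CPM in vehicle, most of it from COL1A2.

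With 1 library on each side, a gene was called when it differed by at least 2-fold, among the 10741 genes whose 5 libraries averaged 5 CPM or more. CDKN2B, at a mean of 5.07 CPM, lay just above that floor, and CDKN2D at 3.86 CPM and CDKN1C at 3.11 CPM lay just below it, so 8 of the 10 genes entered the calls. In shHDAC6 against shControl 0 of the 8 were called, where 0.438% of all genes were at least 2-fold higher and 0.251% at least 2-fold lower. In ACY1215 against vehicle CDKN2A and CCND2 were called higher, where 1.67% of all genes were, and CDKN2C was called lower, where 3.04% were. In CAY10603 against vehicle CDKN2A was the only one of the 8 called, and it was 1 of 3 genes in the whole comparison that were at least 2-fold higher, 0.0279% of those tested. At least 2-fold lower there were 0 of the 8 and 0.242% of all genes. The 2 controls also differed from each other: CDKN2A and CCND2 were at least 2-fold higher in shControl than in vehicle, where 0.512% of all genes were, and 0 of the 8 were at least 2-fold lower, where 0.903% were. Both drugs share the vehicle library. When each drug was set against shControl in place of vehicle, 0 of the 8 genes were called for either drug.

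**Figure D1:**
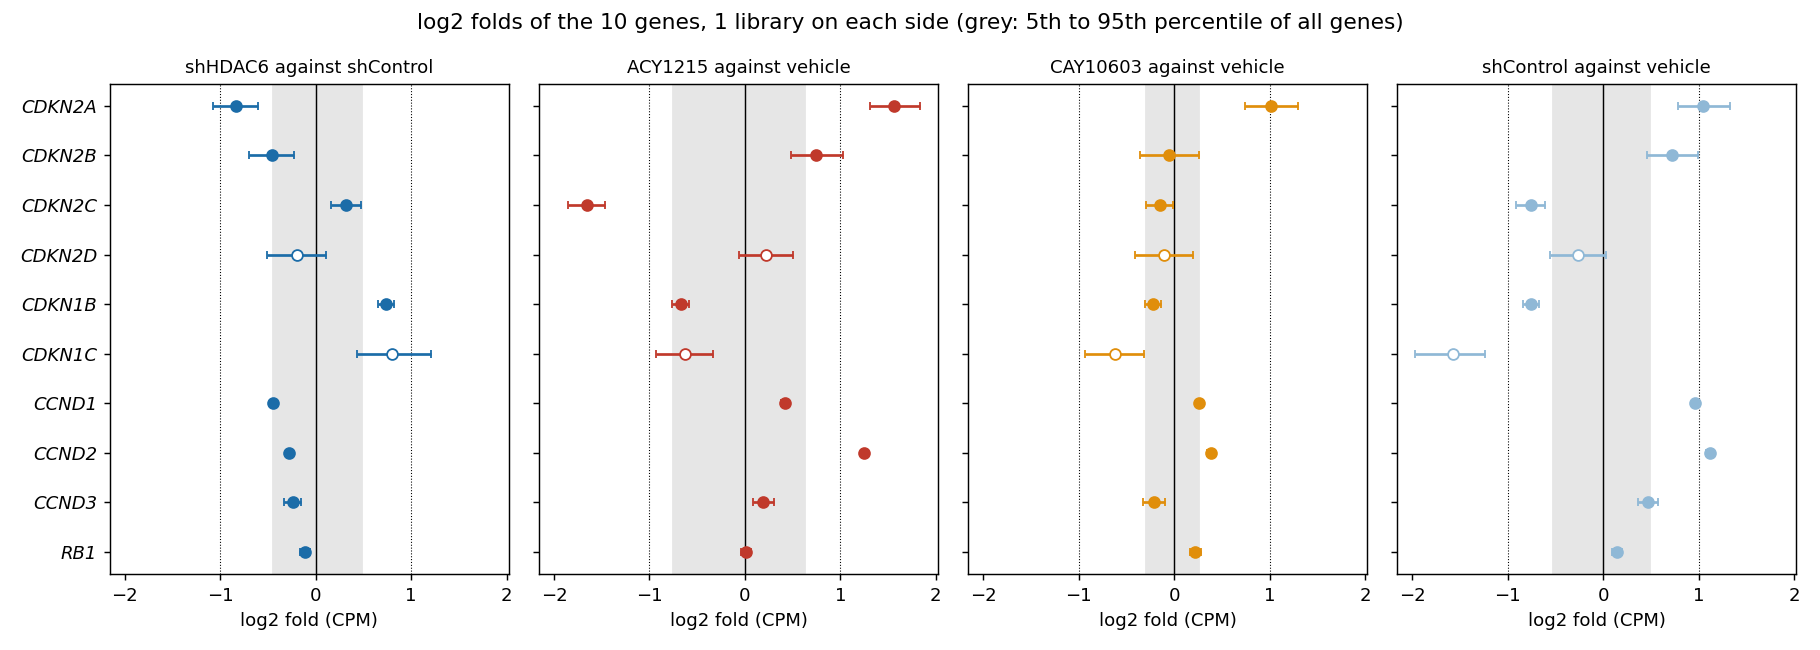
Each point is the log2 fold of 1 gene (rows) in 1 pair of libraries (panels), with its 95% counting interval; open points are CDKN2D and CDKN1C, which lie below the floor of 5 CPM. The grey band runs from the 5th to the 95th percentile of all genes and the dotted lines mark 2-fold. Past a dotted line are CDKN2A, CDKN2C and CCND2 in ACY1215 against vehicle, CDKN2A in CAY10603 against vehicle, and CDKN2A, CCND2 and the open CDKN1C point in shControl against vehicle.

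CDKN2A (Entrez 1029) measured 4.14 CPM in shHDAC6, 10.6 CPM in ACY1215 and 7.22 CPM in CAY10603, against 7.40 CPM in shControl and 3.57 CPM in vehicle, from 218, 552, 349, 426 and 159 counts in that order. ACY1215 was highest. CAY10603 and shControl came next with overlapping counting intervals (6.49 to 8.02 and 6.71 to 8.13 CPM), and shHDAC6 and vehicle were lowest, again with overlapping intervals (3.60 to 4.72 and 3.03 to 4.17 CPM). The log2 fold was 1.56 in ACY1215 against vehicle (95% counting interval 1.31 to 1.83) and 1.01 in CAY10603 against vehicle (0.74 to 1.30), but -0.83 in shHDAC6 against shControl (-1.08 to -0.60). Hairpin and drugs lay on opposite sides of their own controls. The CAY10603 value sat at the 2-fold line, with a counting interval on both sides of it. With library totals in place of TMM scaling, or with the authors' FPKM, it was no longer called. Against shControl, the log2 fold of CAY10603 was -0.03 and that of ACY1215 was 0.52. The distance between the controls, 1.04 on the log2 scale in shControl against vehicle, was thus as large as the CAY10603 fold. The row does not separate p16INK4a from ARF. In GENCODE v29 transcripts, 9.05% of the 50-base stretches of CDKN2A also lie in CDKN2B-AS1 on the opposite strand. The kit keeps strand, but whether counting used it is not stated. CDKN2B-AS1 itself stayed between 0.417 and 1.46 CPM.

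CDKN2B (Entrez 1030), which codes for the TGF-beta-responsive inhibitor p15INK4b, had 4.67 CPM in shHDAC6, 6.58 CPM in ACY1215 and 3.77 CPM in CAY10603, against 6.44 CPM in shControl and 3.90 CPM in vehicle. ACY1215 and shControl were highest with overlapping counting intervals. Its log2 fold was 0.75 in ACY1215 against vehicle and -0.46 in shHDAC6 against shControl, the same sides as CDKN2A. In CAY10603 against vehicle it was -0.05, with a counting interval of -0.36 to 0.26 that holds 0, so no difference was detectable at this depth. Other transcribed neighbours on 9p, MTAP and KLHL9, moved less than CDKN2B in ACY1215 against vehicle and in shHDAC6 against shControl. In CAY10603 against vehicle their log2 folds, 0.19 and 0.22, were larger than that of CDKN2B. MTAP, an enzyme of methionine salvage, had 79.6 CPM in shHDAC6, 101 CPM in ACY1215 and 85.1 CPM in CAY10603, against 72.9 CPM in shControl and 74.7 CPM in vehicle. KLHL9, a ubiquitin ligase adaptor, had 81.9 CPM in shHDAC6, 98.9 CPM in ACY1215 and 80.7 CPM in CAY10603, against 90.1 CPM in shControl and 69.5 CPM in vehicle. Both were highest in ACY1215, by log2 folds of 0.43 and 0.51 over vehicle. Of 8 listed neighbours, 7 had a row and these 2 passed the floor of 5 CPM.

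CDKN2C (Entrez 1031), which codes for p18INK4c, had the widest range of the 8 genes and went the other way. It measured 13.6 CPM in shHDAC6, 5.83 CPM in ACY1215 and 16.6 CPM in CAY10603, against 10.9 CPM in shControl and 18.4 CPM in vehicle. ACY1215 was lowest by far, and no other library's counting interval (12.6 to 14.6, 15.5 to 17.8, 10.1 to 11.8 and 17.2 to 19.7 CPM for shHDAC6, CAY10603, shControl and vehicle) came near its 5.20 to 6.53 CPM. The log2 fold in ACY1215 against vehicle was -1.65 (-1.86 to -1.47), and 0.372% of all genes were as far below. Against shControl it was -0.90, still lower but short of 2-fold. In CAY10603 against vehicle the log2 fold was -0.15, and in shHDAC6 against shControl it was 0.32.

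CDKN2D (Entrez 1032), which codes for p19INK4d, had 3.02 CPM in shHDAC6, 4.83 CPM in ACY1215 and 3.85 CPM in CAY10603, against 3.46 CPM in shControl and 4.15 CPM in vehicle. Its counting interval held 0 on the log2 scale in each of the 3 pairs of an intervention and its control, so at this depth no difference was detectable.

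The family as a whole changed its make-up more than its sum. Summed over the 4 INK4 genes, the authors' FPKM (a value per transcript length, which allows genes to be compared) came to 15.5 in shHDAC6, 19.6 in ACY1215 and 20.4 in CAY10603, against 18.7 in shControl and 19.3 in vehicle. CDKN2A supplied 26.8% of that sum in shHDAC6, 52.5% in ACY1215 and 35.8% in CAY10603, against 40.3% in shControl and 19.0% in vehicle. CDKN2C supplied 44.9% in shHDAC6, 14.1% in ACY1215 and 39.8% in CAY10603, against 30.9% in shControl and 52.5% in vehicle. ACY1215 and vehicle thus hold the 2 genes in opposite order, with nearly the same sum. In shControl, CDKN2A also led CDKN2C.

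**Figure D2:**
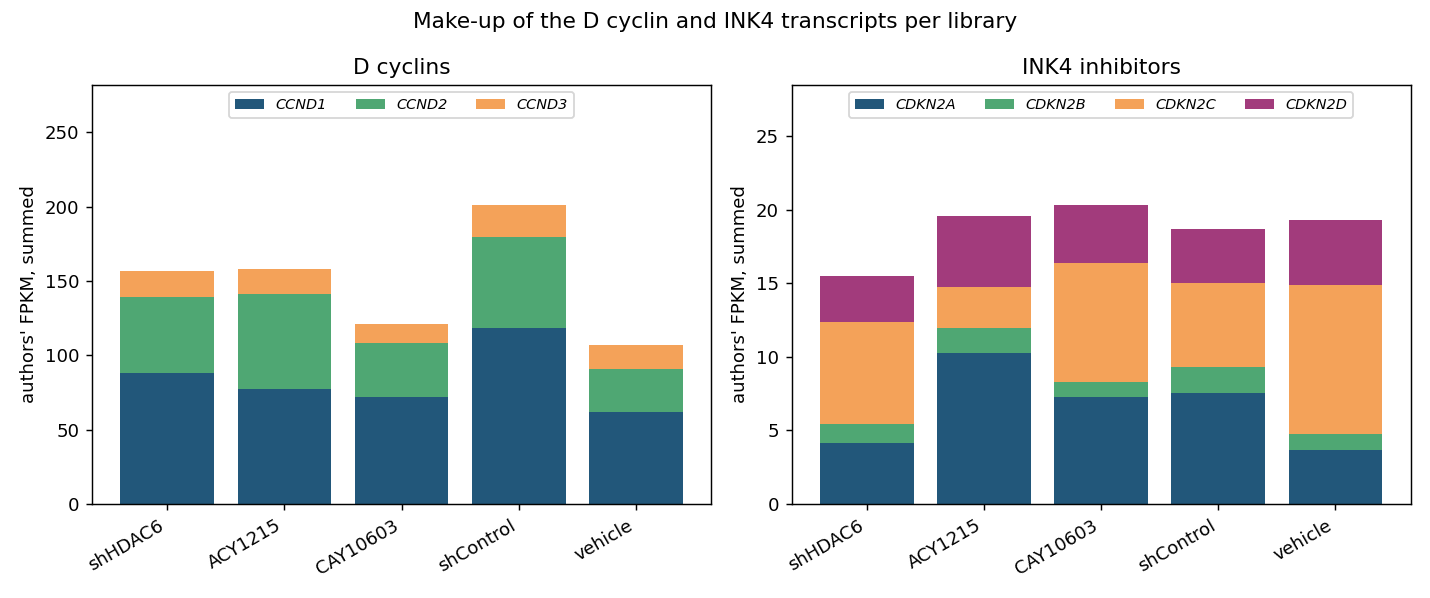
Stacked bars give the authors' FPKM of the 3 D cyclins (left) and the 4 INK4 inhibitors (right) in each library; 1 library stands behind each bar, so there is no error bar. The INK4 sums lie between 15.5 and 20.4 FPKM while the CDKN2A and CDKN2C segments trade places, and the D cyclin sums lie between 107 and 201 FPKM.

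CDKN1B (Entrez 1027), which codes for the Kip inhibitor p27, had 56.1 CPM in shHDAC6, 35.8 CPM in ACY1215 and 49.0 CPM in CAY10603, against 33.8 CPM in shControl and 57.0 CPM in vehicle. The libraries fell into a high set of vehicle and shHDAC6, whose counting intervals overlap, a low set of ACY1215 and shControl, whose intervals overlap too, and CAY10603 in between. The log2 fold was 0.73 in shHDAC6 against shControl (0.65 to 0.82), -0.67 in ACY1215 against vehicle (-0.76 to -0.59) and -0.22 in CAY10603 against vehicle (-0.30 to -0.14). The hairpin and the drugs again lay on opposite sides of their own controls, and shControl itself was -0.75 from vehicle. With the control exchanged, the log2 folds became -0.02 for shHDAC6, 0.08 for ACY1215 and 0.53 for CAY10603.

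CDKN1C (Entrez 1028), the imprinted gene for p57, had 2.81 CPM in shHDAC6, 3.13 CPM in ACY1215 and 3.15 CPM in CAY10603, against 1.60 CPM in shControl and 4.85 CPM in vehicle. The 3 intervention libraries had overlapping counting intervals and stood between the 2 controls, which were the extremes. The log2 fold was 0.80 in shHDAC6 against shControl, and -0.63 in ACY1215 and -0.62 in CAY10603 against vehicle. CDKN1A, the p53-induced inhibitor p21 of the same family, had 325 CPM in shHDAC6, 206 CPM in ACY1215 and 155 CPM in CAY10603, against 330 CPM in shControl and 154 CPM in vehicle. For CDKN1A the hairpin libraries were alike and above the drug experiment: its log2 fold was -0.02 in shHDAC6 against shControl, 0.42 in ACY1215 against vehicle and 0.01 in CAY10603 against vehicle, but 1.10 in shControl against vehicle.

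CCND1 and CCND2 were the most abundant of the 10 genes per length in every library. CCND1 had the highest FPKM of the 10 in every library, at 87.9 in shHDAC6, 77.2 in ACY1215 and 72.0 in CAY10603, against 119 in shControl and 62.1 in vehicle. CDKN1A stood above it in all 5 libraries, with 168, 101, 78.8, 170 and 80.7 FPKM in the same order of libraries. The lowest of the 10 per length was CDKN1C in shControl (1.01 FPKM) and CDKN2B in the other 4 libraries (1.02 to 1.71 FPKM).

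CCND2 (Entrez 894) moved most among the cyclins. It had 319 CPM in shHDAC6, 426 CPM in ACY1215 and 234 CPM in CAY10603, against 388 CPM in shControl and 179 CPM in vehicle. No counting intervals overlapped, and ACY1215 was highest and vehicle lowest. The log2 fold was 1.25 in ACY1215 against vehicle (1.21 to 1.29), 0.38 in CAY10603 against vehicle and -0.28 in shHDAC6 against shControl. Against shControl, ACY1215 was 0.13 higher and CAY10603 was at -0.73. In GENCODE v29, 14.2% of the 50-base stretches of CCND2 transcripts are also found in AC008012.1 or CCND2P1 on the same strand. Part of its reads may thus be hard to place, but whether this touched the deposited counts was not tested.

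CCND1 (Entrez 595), the D cyclin most often amplified in cancers, had 356 CPM in shHDAC6, 332 CPM in ACY1215 and 298 CPM in CAY10603, against 485 CPM in shControl and 249 CPM in vehicle. All 3 interventions lay between the 2 controls. The log2 fold was -0.45 in shHDAC6 against shControl, 0.41 in ACY1215 against vehicle and 0.26 in CAY10603 against vehicle, beside 0.96 in shControl against vehicle. In GENCODE v29 transcripts, 9.13% of the 50-base stretches of CCND1 also lie in LTO1 on the opposite strand. As for CDKN2A, whether counting used strand is not stated. CCND3 (Entrez 896) had 32.6 CPM in shHDAC6, 31.9 CPM in ACY1215 and 24.1 CPM in CAY10603, against 38.6 CPM in shControl and 27.9 CPM in vehicle. Its log2 fold was -0.24 in shHDAC6 against shControl, 0.19 in ACY1215 against vehicle and -0.21 in CAY10603 against vehicle. In summed FPKM, the D cyclins came to 157 in shHDAC6, 158 in ACY1215 and 121 in CAY10603, against 201 in shControl and 107 in vehicle. Both hairpin libraries and ACY1215 were high and CAY10603 and vehicle low. CCND1 supplied 56.0% in shHDAC6, 48.9% in ACY1215 and 59.3% in CAY10603, against 58.9% in shControl and 58.0% in vehicle, so ACY1215 was the only library in which CCND1 gave less than the other D cyclins together.

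RB1 (Entrez 5925), the pocket protein on which the kinases act, was the flattest of the 10. It had 105 CPM in shHDAC6, 104 CPM in ACY1215 and 120 CPM in CAY10603, against 114 CPM in shControl and 103 CPM in vehicle. Its log2 fold was -0.12 in shHDAC6 against shControl, 0.01 in ACY1215 against vehicle and 0.22 in CAY10603 against vehicle. The first turned to 0.03 with the authors' FPKM, and the second to -0.09 with library totals alone or with FPKM.

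**Figure D3:**
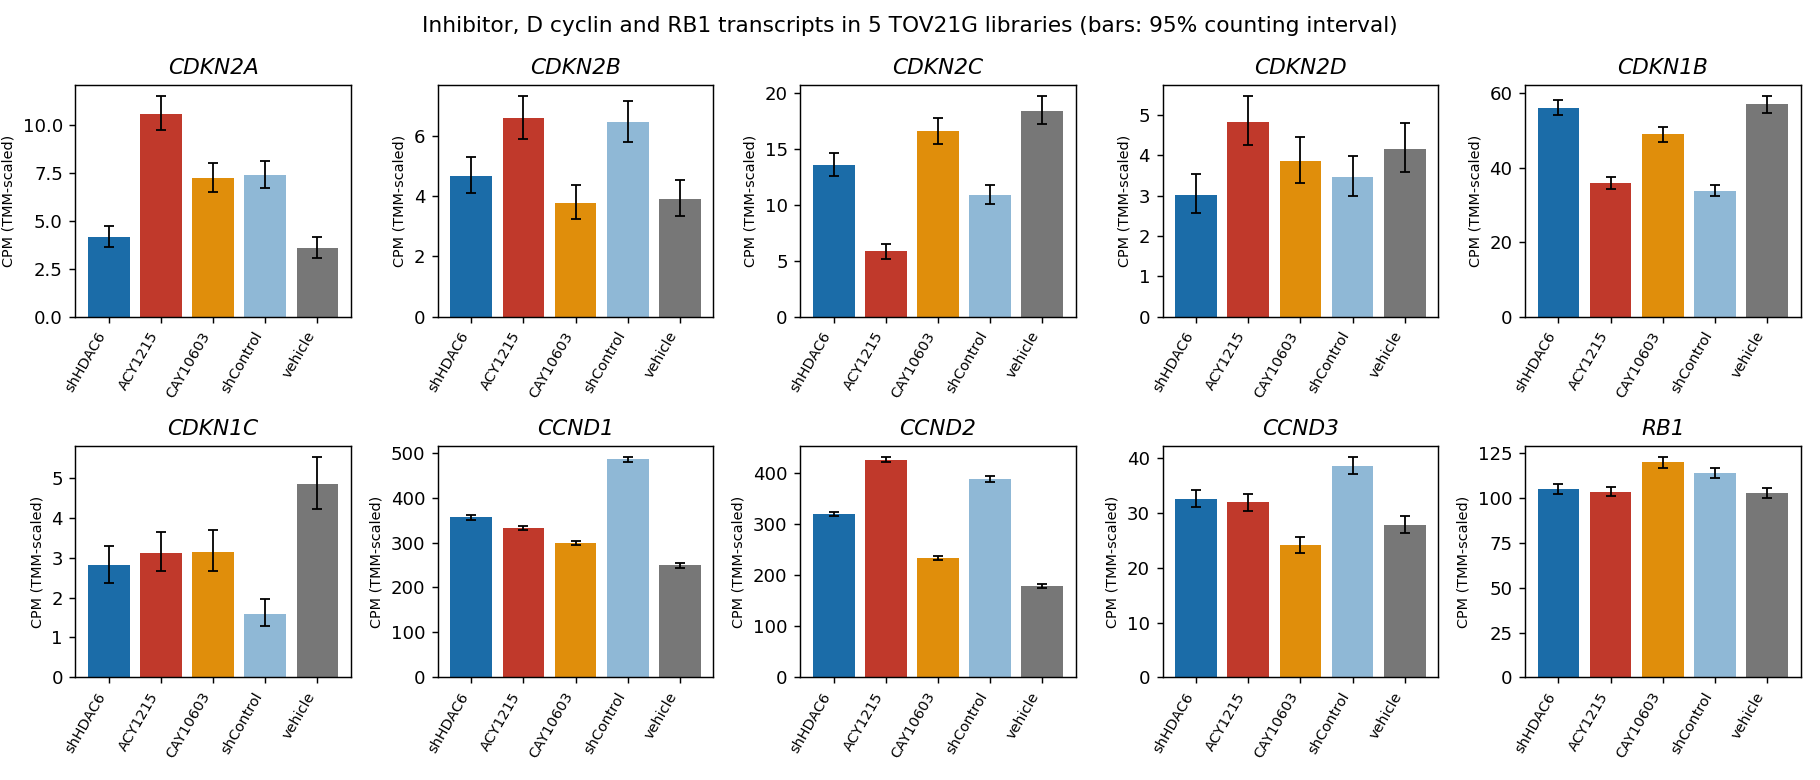
Bars give the level of each gene in CPM after TMM scaling, 1 library per bar, on axes that start at 0 and differ in scale; error bars are 95% Poisson intervals and cover counting error only. ACY1215 holds the highest CDKN2A, CDKN2B, CDKN2D and CCND2 bars and the lowest CDKN2C bar, and RB1 stays between 103 and 120 CPM.

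Set against both controls at once, ACY1215 lay above both for CDKN2A, CDKN2B, CDKN2D and CCND2 and below both for CDKN2C. CAY10603 lay above both for RB1 and below both for CDKN2B and CCND3, and shHDAC6 lay below both for CDKN2D. Every other value of an intervention fell between shControl and vehicle. These positions compare point values. Counting intervals overlapped that of the nearer control for CDKN2B and CDKN2D in ACY1215, CDKN2B in CAY10603 and CDKN2D in shHDAC6. The share of all genes lying outside both controls was not counted. In a single model of the 3 repressed HDAC6 libraries against the 2 controls, with hairpin or drug experiment as a covariate, edgeR's quasi-likelihood test called 0 of the 10 genes and 0 of 13449 genes (0%) at an adjusted p under 0.05. The adjusted p of each of the 10 was 1.00. Before adjustment, 100 genes had a p under 0.05 with edgeR, 112 with DESeq2 and 122 with limma-voom, and DESeq2 and limma-voom also called 0 after adjustment. The pooled log2 folds were 0.34 (SE 0.53) for CDKN2A, -0.29 (SE 0.44) for CDKN2C and 0.37 (SE 0.36) for CCND2, and those of the other 7 genes lay between -0.10 and 0.05. The pooled fold of each of the 10 changed sign when one or another library was left out. That of CDKN2A was -0.84 without vehicle, 0.07 without ACY1215 and 1.32 without shControl or without shHDAC6. With the covariate, the fit without vehicle rests on the hairpin pair alone. Fits without shControl or without shHDAC6 rest on the drug experiment alone. With 2 residual degrees of freedom and 3 unlike interventions treated as 1 group, these p-values measure the spread between these libraries only.

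A model with an interaction term, added after the values had been seen, asked whether the hairpin fold and the drug fold differ. Its 1 residual degree of freedom comes only from the gap between the ACY1215 and CAY10603 libraries, so the hairpin arm adds no spread of its own. It called 1 of 13449 genes, 0.00744%, and 0 of the 10. That gene was GTF2IP1, named here after its value was seen. The hairpin fold minus the drug fold was -2.16 for CDKN2A, 1.16 for CDKN1B and -1.16 for CCND2 on the log2 scale, each with an adjusted p of 0.97 in edgeR.

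The pathway around these genes was described through lists, with no test. Of 20 E2F target genes, all 20 were lower in ACY1215 than in vehicle and 12 of them at least 2-fold lower, as 3.04% of all genes were, with a median log2 fold of -1.06 beside -0.00 for all genes. In shHDAC6 against shControl 19 of the 20 were higher and 0 reached 2-fold, with a median of 0.28 beside 0.00. Of all genes, 0.438% were at least 2-fold higher there. In CAY10603 against vehicle 12 were higher and 8 lower, with a median of 0.01. In shControl against vehicle 16 were lower, with a median of -0.23. RRM2, a subunit of ribonucleotide reductase, had 139 CPM in shHDAC6, 42.1 CPM in ACY1215 and 114 CPM in CAY10603, against 114 CPM in both shControl and vehicle. MCM7, a part of the replicative helicase, had 223 CPM in shHDAC6, 70.1 CPM in ACY1215 and 166 CPM in CAY10603, against 138 CPM in shControl and 183 CPM in vehicle. CCNA2, the cyclin of S and G2 phase, had 153 CPM in shHDAC6, 52.7 CPM in ACY1215 and 161 CPM in CAY10603, against 95.4 CPM in shControl and 162 CPM in vehicle. All 3 were lowest in ACY1215, as CDKN2C was. In bulk RNA, fewer cells in S phase and less of these RNAs per cell cannot be told apart.

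**Figure D4:**
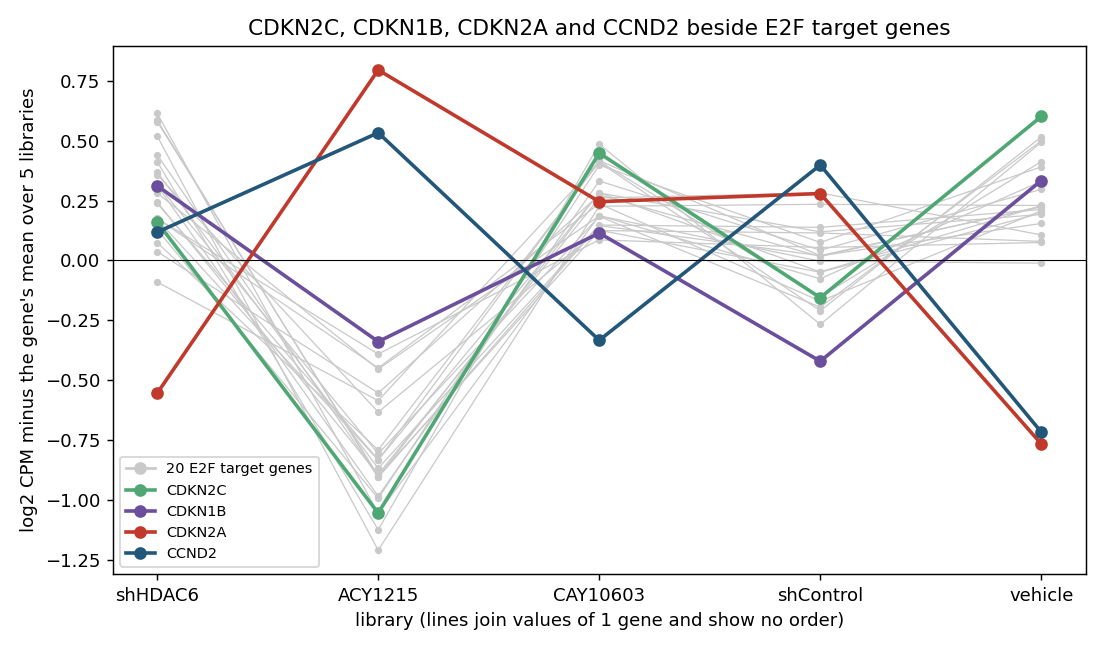
The log2 CPM of CDKN2C, CDKN1B, CDKN2A and CCND2 (colours) and of 20 E2F target genes (grey) is drawn relative to each gene's own mean over the 5 libraries; lines join the values of a gene and show no order. CDKN2C dips with the E2F targets in ACY1215, where CDKN2A and CCND2 are at their highest.

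Among 12 pocket proteins and E2F factors, 8 were lower in ACY1215 than in vehicle, 4 of them at least 2-fold, as 3.04% of all genes were. In shHDAC6, 11 were higher than in shControl, 0 of them by 2-fold, as 0.438% of all genes were. The widest were the activator E2F2, the atypical repressor E2F8 and the activator E2F1. E2F2 had 17.7 CPM in shHDAC6, 4.95 CPM in ACY1215 and 13.4 CPM in CAY10603, against 11.4 CPM in shControl and 15.1 CPM in vehicle. E2F8 had 9.09 CPM in shHDAC6, 2.86 CPM in ACY1215 and 9.05 CPM in CAY10603, against 7.90 CPM in shControl and 9.40 CPM in vehicle. For E2F1 the log2 fold was -1.11 in ACY1215 against vehicle and 0.64 in shHDAC6 against shControl. E2F2, E2F8 and E2F1 were thus low in ACY1215 and high in shHDAC6 relative to their controls, while RB1 hardly differed. They were named for their wide range. Of the 12, 4 were higher in ACY1215 than in vehicle, and the median log2 fold was -0.28.

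Of 10 G1 kinases and their partners, 6 were higher and 4 lower in ACY1215 against vehicle, with a median log2 fold of 0.06. Only CCNE2 was at least 2-fold lower there, as 3.04% of all genes were. CCNE2 is a cyclin that activates CDK2, with 18.0 CPM in shHDAC6, 6.91 CPM in ACY1215 and 18.2 CPM in CAY10603, against 13.0 CPM in shControl and 16.7 CPM in vehicle. CDC25A, a phosphatase that activates CDK2, followed with a log2 fold of -0.69 in ACY1215 against vehicle and 0.59 in shHDAC6 against shControl. MNAT1, the assembly factor of the CDK-activating kinase, went the other way, at 0.30 and -0.28. Of 12 genes for the turnover of D cyclins and CDKN1B, 7 were lower in ACY1215 against vehicle. At 2-fold or more, beside 3.04% of all genes, 1 of them was lower. It was CKS1B, the cofactor with which the SKP2 ligase recognises p27, with 28.7 CPM in shHDAC6, 12.8 CPM in ACY1215 and 28.5 CPM in CAY10603, against 17.7 CPM in shControl and 27.4 CPM in vehicle. CRYAB and FBXO4, reported partners in the ubiquitination of cyclin D1, had log2 folds of 0.57 and -0.71 in ACY1215 against vehicle. The kinases and the degradation machinery thus showed no common direction, apart from single genes that were low in ACY1215.

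The genes most like CDKN2A and CDKN2C were found by the root mean square difference of their centred log2 CPM over the 5 libraries, among 10740 other genes. Nearest to CDKN2A were IGFBP5, a binding protein of insulin-like growth factors, at 0.17, then RPS16, TRNP1, SP110 and PCSK1N at 0.20 to 0.22. The median gene was at 0.59. IGFBP5 had 96.0 CPM in shHDAC6, 232 CPM in ACY1215 and 127 CPM in CAY10603, against 145 CPM in shControl and 87.7 CPM in vehicle. Nearest to CDKN2C were BIRC5, the survivin gene of the mitotic passenger complex, at 0.065, and HIST1H2AM, NUSAP1, PBK and SKA3 at 0.07 to 0.09. BIRC5 had 79.7 CPM in shHDAC6, 33.6 CPM in ACY1215 and 93.2 CPM in CAY10603, against 59.5 CPM in shControl and 94.9 CPM in vehicle. Among the 10 genes, CDKN2B ranked 771 by likeness to CDKN2A and CCND2 ranked 533, while CDKN2C ranked 10616 and was thus among the least alike. CDKN1B ranked 631 by likeness to CDKN2C.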

How the data were processed

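Total RNA from 5 libraries of TOV21G cells was sequenced with a stranded kit, per the labels' protocols. Expected counts (whole numbers) and FPKM (2 decimals) were both made and deposited by the authors in 1 table of genes, per the file headers. RSEM 1.2.3, edgeR and hg19 are named in the submitters' processing notes, with no role for each. No aligner, annotation or strand setting is named in the sources at hand. The DMSO column was taken for the vehicle library, since the labels hold a single vehicle sample. There are 28442 gene rows, and 2 blank rows were left out.

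Counts were used with no further rounding. The pooled test was edgeR 4.0.16 (R 4.3.3; TMM, robust quasi-likelihood F test, experiment type as covariate, a floor of 1 CPM reached in 2 or more libraries, Benjamini-Hochberg adjustment at 0.05). For single pairs, log2 folds of CPM (TMM, prior count 2) were taken over genes that averaged 5 CPM or more. Intervals (95%) are exact Poisson for levels and exact binomial for folds. Alternatives were DESeq2 1.42.0, limma-voom (limma 3.58.1), RLE scaling, library totals, no covariate, no filter, a prior count of 0.5, FPKM with a pseudocount of 0.1, the other control and each library left out. Scripts were tested on simulated data.

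The genes and gene lists were chosen with earlier results of these data known. Named were all 10 genes, HDAC6, CDKN1A, the 3 genes of each list with the widest range among those averaging 5 CPM or more, and the 5 genes most like CDKN2A and CDKN2C (CDKN2C has the widest range of the 8 above the floor). The reference at hand is GRCh38 and the table is hg19, so the only coordinates given are RefSeq's own. PAX8, NAPSA, CDH1 and HBA2, given as a check of the cell line label, fall outside that rule and were chosen after their values were seen. Some listed marker genes are not reported here.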

Additional observations from a re-analysis of the deposited data

Results flagged for a closer look

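Of the 10 genes, 6 had a hairpin fold on one side of its control and both drug folds on the other, each with a 95% counting interval that excludes 0. RB1 had the same signs, but its ACY1215 interval holds 0. The share of all genes that meet this rule was not counted, so the count cannot be read as a trait of these genes. The hairpin fold minus the drug fold was -2.16 for CDKN2A, 1.04 for CDKN2C, 1.16 for CDKN1B, 1.44 for CDKN1C, -0.79 for CCND1 and -1.16 for CCND2 on the log2 scale. In edgeR's interaction model, added after the values had been seen, each had an adjusted p of 0.97. The spread in that model comes only from the gap between the 2 unlike drugs, which share a control, and the hairpin arm is 1 library against 1. The 6 genes were chosen for this pattern, so the p neither shows the difference nor shows that there is none.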

How the results depend on the processing

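The pooled count of 0 genes became 3 without vehicle (GTF2IP1, BC007880 and CR749695) and 4 without ACY1215 (EIF3CL, LOC100505876, BC017214 and HIST2H3C), genes picked out only once their values were known; the pooled model called 0 of the 10 genes under each alternative run. When each library was left out in turn, pooled log2 folds ranged from -0.84 to 1.32 for CDKN2A, -0.46 to 0.41 for CDKN2B, -0.72 to 0.32 for CDKN2C, -0.20 to 0.07 for CDKN2D, -0.43 to 0.73 for CDKN1B, -0.63 to 0.81 for CDKN1C, -0.45 to 0.34 for CCND1, -0.28 to 0.88 for CCND2, -0.24 to 0.01 for CCND3 and -0.12 to 0.12 for RB1. Without the covariate CDKN2B turned to -0.05 and CDKN2D to 0.04, and with limma-voom CDKN2B turned to -0.04 and CCND1 to 0.02. With the covariate, the fit without vehicle rests on shHDAC6 against shControl alone. Fits without shControl or without shHDAC6 rest on the drug experiment alone. The fit without vehicle thus restates the hairpin pair, and the fits without shControl or without shHDAC6 pool both drugs against vehicle. Fits without ACY1215 or without CAY10603 pool the hairpin pair with the remaining drug. Why the folds changed with limma-voom or without the covariate was not tested. In single pairs, the 3 genes called in ACY1215 and the 1 in CAY10603 became 0 with shControl in place of vehicle, where CDKN2A in CAY10603 turned to -0.03. The 1 in CAY10603 also became 0 with library totals alone and with FPKM. Library totals put the median of all genes in ACY1215 against vehicle at -0.10. Over all genes, those called numbered 74, 505 and 29 for shHDAC6, ACY1215 and CAY10603, against 128, 323 and 120 with the other control and 1732, 4913 and 3416 with no filter on mean CPM. In shHDAC6, 47 were higher and 27 lower, but 34 and 37 with FPKM. No paired analysis was possible by replicate number, because the numbers follow record order and pair no libraries; experiment type, which ties each intervention to its control, is a term of the pooled model. Depth limits the low genes CDKN2D, CDKN1C and CDKN2B most.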

Other observations

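Genes known to act on the transcription of these inhibitors and cyclins were listed too. Of 11 tested regulators of CDKN2A and CDKN2B transcription, 0 reached 2-fold in any pair, and the medians lay between -0.02 and 0.08 on the log2 scale. Few of all genes reached it: 0.0279% to 1.67% were at least 2-fold higher, depending on the pair, and 0.242% to 3.04% lower. A count of 0 in so short a list is near those shares. MYC, a transcription factor that also acts on D cyclins, had 112 CPM in shHDAC6, 190 CPM in ACY1215 and 129 CPM in CAY10603, against 121 CPM in shControl and 115 CPM in vehicle, and was thus highest in ACY1215. BMI1, a Polycomb repressor of the CDKN2A locus, had 16.0 CPM in shHDAC6, 23.3 CPM in ACY1215 and 14.2 CPM in CAY10603, against 15.4 CPM in shControl and 18.5 CPM in vehicle. CBX8, another Polycomb subunit, lay between 7.16 and 10.9 CPM.

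Of 9 tested regulators of D cyclin and CDKN1B transcription, 0 reached 2-fold in any pair, again near the shares of all genes. NOTCH1, a receptor whose signalling can raise CCND1, had 38.7 CPM in shHDAC6, 18.9 CPM in ACY1215 and 24.1 CPM in CAY10603, against 32.0 CPM in shControl and 24.2 CPM in vehicle. ATF3, a stress-induced factor, lay between 5.89 and 9.80 CPM. EPCAM, an epithelial surface protein, had the widest range of the 6 clear cell and epithelial markers averaging 5 CPM or more, at 39.7 CPM in shHDAC6, 29.6 CPM in ACY1215 and 65.7 CPM in CAY10603, against 59.7 CPM in shControl and 59.6 CPM in vehicle. Next in range came ANXA4, an annexin raised in clear cell carcinoma, between 183 and 323 CPM, and KRT8, a keratin, between 73.0 and 103 CPM. Both were highest in shControl and lowest in vehicle.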
